A study of Arabidopsis thaliana with 12 samples.

Results

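The probes described here measure PSB27 (AT1G03600), LPA19 (AT1G05385) and AT5G46390, 3 nuclear genes for proteins of photosystem II assembly and of carboxyl-terminal peptide cleavage in the chloroplast. A probe was taken where the platform annotation gives exactly 1 gene and that gene is one of these, which found 3 probes of the 3439 on the array and of the 692 that name 1 gene. The genes were chosen by function with their changes between bromoxynil and water already known, so those changes are a description: no p-value is given for them, and where calls of the fit over all probes are counted, nothing is read from the count. Wild-type Arabidopsis thaliana plants of the Landsberg ecotype received 500 µM bromoxynil (6 arrays) or water (6 arrays). Bromoxynil is a nitrile herbicide that blocks electron transport at photosystem II, and water served as the control. Plants of both groups had spent 12 h in darkness and were sampled after 30 min of renewed light. The labels name neither an organ nor an age, and 0 of 20 leaf, root, seed and flower marker genes had a probe of their own, so the tissue was not checked.

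Photosystem II splits water in the light, and its D1 protein is damaged and replaced all the time. D1 is made as a precursor, and a carboxyl-terminal peptidase of the thylakoid lumen removes its tail before the manganese cluster that oxidises water can form. Whether AT5G46390 acts on D1 is not something these data show. Proteins of the Psb27 family bind photosystem II on its lumen side while it is assembled or repaired. In Arabidopsis, PSB27 is known for its part in the recovery of photosystem II after light damage, and LPA19 for its part in the processing of the D1 precursor. Bromoxynil occupies the plastoquinone site of the D1 protein.

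With bromoxynil, the AT5G46390 probe was much brighter and the LPA19 probe dimmer, with no overlap between the groups for either. After an adjustment for the place of a probe on the array, described below, the LPA19 groups did overlap. PSB27 was on average lower with bromoxynil, but its groups overlapped widely, and its arrays numbered 1 and 2 were dim in both groups. Total RNA of plants was measured, so fewer cells of a type and less RNA per cell cannot be told apart. The intensities are relative to the brightest feature, which has the value 100 on each of the 12 arrays, and no intensity of these 3 probes was 0. Levels of different probes are not set against each other. Numbers from 1 to 6 in the titles link a bromoxynil array with a water array, and the labels do not say what such a pair shares. Nor do they state whether arrays were made from different plants, so the errors given measure the spread between arrays, which may be technical. Whether the 6 arrays of a group are 6 independent measurements is not stated either. If arrays with consecutive numbers share a source, which was not tested, values over 6 arrays or 6 numbers rest on 3 measurements.

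PSB27 had deposited intensities of 0.352, 0.321, 1.03, 0.911, 0.871 and 0.768 on bromoxynil arrays 1 to 6. On water arrays 1 to 6 they were 0.520, 0.227, 1.41, 1.22, 1.34 and 1.28. In both groups arrays 1 and 2 were lower than all of arrays 3 to 6. The means were 0.709 ± 0.301 with bromoxynil and 0.999 ± 0.497 with water (SD, n = 6 each), and the spread within each group exceeded the distance between them. After the arrays were brought to the same distribution (quantile normalisation), the log2 change of bromoxynil against water was -0.71 ± 0.47 (SE, n = 6 per group), which is 1.64-fold lower.

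LPA19 had deposited intensities of 0.348, 0.477, 0.522, 0.448, 0.460 and 0.486 on bromoxynil arrays 1 to 6, against 0.705, 0.724, 0.685, 0.678, 0.755 and 0.972 on water arrays 1 to 6. The highest bromoxynil array stayed below the lowest water array. The means were 0.457 ± 0.0588 with bromoxynil and 0.753 ± 0.111 with water (SD, n = 6 each). On quantile-normalised values the log2 change was -1.12 ± 0.11 (SE, n = 6 per group), or 2.18-fold lower. On the values as deposited it was -0.72, since the median of all probes was higher by 0.46 on the log2 scale on the bromoxynil arrays before normalisation. Arrays 1 and 2 did not stand apart for this probe: their mean minus that of arrays 3 to 6 was -0.24 with bromoxynil and -0.03 with water, on the log2 scale.

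AT5G46390 belongs to a family of carboxyl-terminal peptidases, which trim the tails of other proteins. Its deposited intensities were 2.01, 0.606, 1.997, 1.86, 1.63 and 1.44 on bromoxynil arrays 1 to 6. On water arrays 1 to 6 they were 0.247, 0.138, 0.253, 0.272, 0.172 and 0.180. The lowest bromoxynil value, that of array 2, was still above the highest water value. Array 2 was also the lowest of the water arrays. The means were 1.59 ± 0.531 with bromoxynil and 0.210 ± 0.0541 with water (SD, n = 6 each), a ratio of 7.57. On quantile-normalised values the log2 change was 2.65 ± 0.32 (SE, n = 6 per group), or 6.26-fold higher. The probe was dim with water: between 10.6% and 22.6% of all probes on a water array were dimmer, against 46.4% to 94.2% on a bromoxynil array. The sources used here do not give how background was subtracted, so part of the low water values may be background, which was not tested.

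**Figure D1:**
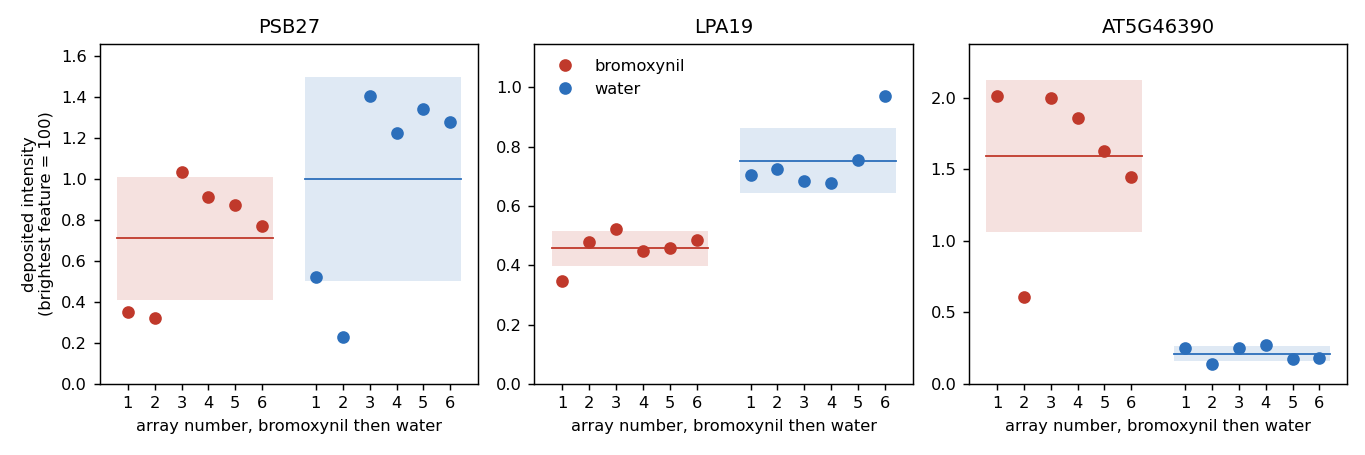
Deposited intensity (y axis, relative to the brightest feature at 100) of the PSB27, LPA19 and AT5G46390 probes on bromoxynil arrays 1 to 6 (red) and water arrays 1 to 6 (blue), with the group mean (line) and 1 SD on each side (band). The groups separate for LPA19 and AT5G46390, while PSB27 shows low arrays 1 and 2 in both groups.

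Read against all 3439 probes, the changes of PSB27 and LPA19 lay within the bulk and that of AT5G46390 at the upper end. In the fit of all probes (limma, Benjamini-Hochberg adjusted p under 0.05) 2 of the 3 probes were called, LPA19 as lower and AT5G46390 as higher, against 54.4% of all probes called in either direction (29.9% lower, 24.5% higher) and 51.6% of those that name 1 gene. The groups did not overlap for the same 2 probes, against 36.5% of all probes. A more negative change than that of PSB27 was found for 22.9% of probes, and than that of LPA19 for 10.6%. The change of AT5G46390 was higher than that of 99.5% of probes. The median change over all probes was -0.04.

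**Figure D2:**
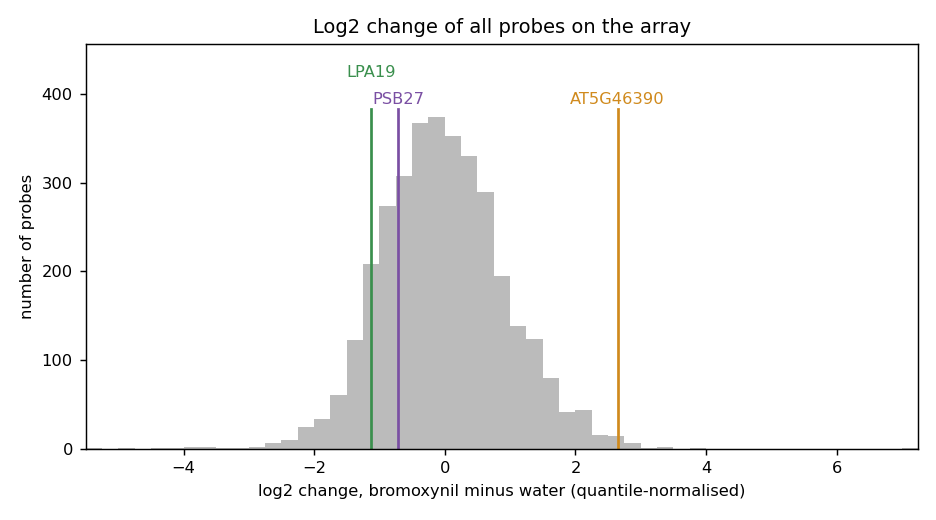
Number of probes (y axis) by log2 change of bromoxynil minus water on quantile-normalised values (x axis, bins of 0.25), with vertical lines at LPA19 (-1.12), PSB27 (-0.71) and AT5G46390 (2.65). LPA19 and PSB27 fall in the lower flank of the distribution and AT5G46390 in its upper tail.

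The genes were next compared with each other within the same array number, so that whatever a number shares enters both arrays of a difference. LPA19 was lower with bromoxynil in 6 of 6 numbers, with log2 changes of -1.45, -1.06, -0.79, -0.98, -1.12 and -1.34 for numbers 1 to 6. AT5G46390 was higher in 6 of 6, with 2.77, 1.71, 2.94, 2.66, 3.04 and 2.76. PSB27 was lower in 5 of 6, with -1.03, 0.11, -0.74, -0.75, -0.86 and -1.01. Of all probes, 30.7% were lower in all 6 numbers and 26.2% were higher in all 6, which is 56.8% with the same direction throughout. For PSB27 the changes within a number had an SD of 0.42, smaller than the SD of 0.73 between bromoxynil arrays and of 0.99 between water arrays. This did not hold for LPA19, with an SD of 0.24 within a number and 0.19 between arrays of either group. AT5G46390 had 0.48 within a number, against 0.75 between bromoxynil arrays and 0.36 between water arrays. Averaged over consecutive numbers (1 with 2, 3 with 4, 5 with 6), the changes of PSB27 were -0.46, -0.74 and -0.93. Those of LPA19 were -1.26, -0.89 and -1.23, and those of AT5G46390 were 2.24, 2.80 and 2.90. With the array number as a replicate block, the fit over all probes counted PSB27 among its lower calls too, making 3 of 3, against 59.8% of all probes, which is again no evidence about genes chosen with the contrast known.

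**Figure D3:**
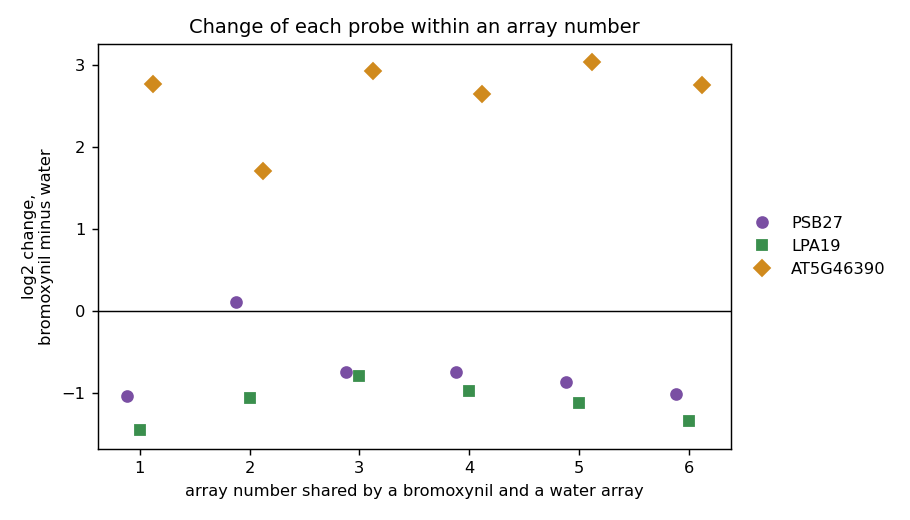
Log2 change of bromoxynil minus water (y axis, quantile-normalised) of PSB27, LPA19 and AT5G46390 within each of array numbers 1 to 6 (x axis). AT5G46390 lies between 1.71 and 3.04 in every number, LPA19 between -1.45 and -0.79, and PSB27 is below 0 in every number but 2.

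Within a number, the log2 change of AT5G46390 exceeded that of LPA19 by 3.77 ± 0.54 (SD, n = 6 numbers), with a range of 2.77 to 4.23. It exceeded that of PSB27 by 3.36 ± 0.88, with a range of 1.60 to 3.89. The peptidase probe and the Psb27 family probes thus stood on opposite sides in every number, apart from number 2, where PSB27 was at 0.11. Between the Psb27 family members, LPA19 minus PSB27 was -0.41 ± 0.39, and it was below 0 in 6 of 6 numbers. Number 2 had the largest difference, at -1.17, against -0.42 to -0.06 in the other numbers. The fitted difference was -0.26 with number 2 left out of both groups, and -0.06 without water array 2 alone. Outside number 2, the changes of the Psb27 family members lay close together.

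Array 2 was the lowest of both groups for PSB27 and for AT5G46390. How many of all probes had this pattern is not given, so nothing is read from it. Relative to the mean of the other arrays of its group, array 2 had PSB27 at -1.17 with bromoxynil and -2.16 with water, on the log2 scale. For AT5G46390 the same differences were -1.77 with bromoxynil and -0.64 with water, and for LPA19 0.06 with bromoxynil and -0.01 with water. Number 1 was low for PSB27 as well. The mean of arrays 1 and 2 minus that of arrays 3 to 6 was a log2 difference of -1.38 with bromoxynil and -1.76 with water. A pattern with arrays 1 and 2 below all of arrays 3 to 6 in both groups was seen for 6.31% of all probes (217). Over numbers 3 to 6, a selection made after these values were seen, PSB27 had changes of -1.01 to -0.74 within a number. With numbers 1 and 2 left out of both groups its fitted change was -0.83, and with number 2 alone left out it was -0.87.

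The place of a probe on the array moved with these values. Differences between water arrays had a period of 288 along the probe numbers, and a place is a position in this period. Among the 155 other probes within 6 places of PSB27, the median log2 change was -0.62, close to that of PSB27 itself, and 120 of them were lower with bromoxynil. Around LPA19 the median of 152 probes was -0.78, and 123 were lower. Around AT5G46390 the median of 156 probes was 0.46, against 2.65 for the probe itself, and 114 were higher. Over all probes on the array the median change was -0.04.

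After the median of nearby places was subtracted from each array, the changes became -0.13 for PSB27, -0.35 for LPA19 and 2.10 for AT5G46390. The LPA19 groups then overlapped, with a log2 value of -0.19 on bromoxynil array 2 and -0.20 on water array 1. LPA19 changes within a number stayed below 0 but ran from -0.63 to -0.04. The AT5G46390 groups stayed apart, with -0.20 as the lowest bromoxynil value and -0.57 as the highest water value. In the means the order of the genes held, with AT5G46390 above LPA19 by 2.45 ± 0.63 and above PSB27 by 2.23 ± 0.97 within a number (SD, n = 6). The ranges were 1.20 to 2.88 against LPA19 and 0.26 to 2.78 against PSB27. In number 2 the adjusted changes were 1.16 for AT5G46390 and 0.90 for PSB27. The difference of LPA19 minus PSB27 was then -0.22 ± 0.37 and above 0 in 1 of 6 numbers, so these members did not separate beyond the spread between numbers. The low arrays 1 and 2 of PSB27 were not a feature of its neighbours: the neighbours' median difference of arrays 1 and 2 from arrays 3 to 6 was -0.18 with bromoxynil and 0.07 with water. For PSB27 after the adjustment it was -1.17 with bromoxynil and -1.77 with water.

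**Figure D4:**
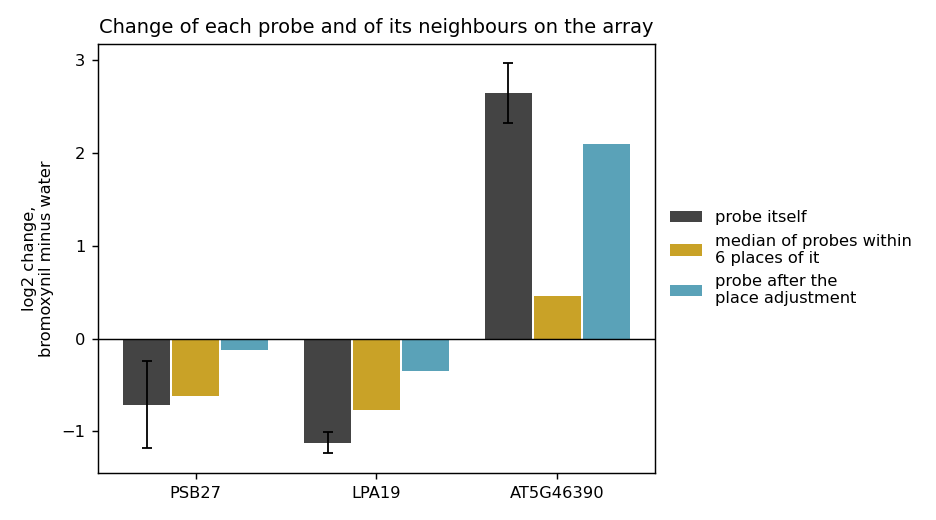
Log2 change of bromoxynil minus water (y axis, quantile-normalised) for PSB27, LPA19 and AT5G46390: the probe itself with the SE of the fit (dark), the median of the other probes within 6 places of it (yellow) and the probe after the place adjustment (blue). The neighbours of PSB27 and LPA19 carry -0.62 and -0.78 of log2 change, and those of AT5G46390 0.46.

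A second probe lists AT5G46390 together with both other carboxyl-terminal peptidase loci of the list below and was counted for no gene. It is described because it went the other way, a choice made after its values were seen. Its deposited intensities were 0.541, 0.597, 0.731, 0.747, 0.747 and 0.872 on bromoxynil arrays 1 to 6, against 1.20, 1.12, 1.60, 1.65, 1.35 and 1.25 on water arrays 1 to 6. The groups did not overlap, and the log2 change was -1.26 ± 0.13 (SE, n = 6 per group), or -0.72 after the place adjustment. The probe naming AT5G46390 alone and this shared probe thus had opposite signs in all 6 numbers. Neither annotation was checked against probe sequences, so which transcripts each probe measures was not tested.

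Of 48 further genes listed for photosystem II assembly, repair and nuclear subunits, 4 had a probe of their own. The lists, like the members, were chosen with earlier results of these data known. Their adjusted p-values therefore describe the fit over all probes and are no evidence about these genes. Of the 27 assembly factors only AT1G54500 (RBD1) was measured, a thylakoid rubredoxin needed for photosystem II to accumulate. It had intensities of 0.678, 0.699, 0.696, 0.670, 0.576 and 0.678 on bromoxynil arrays 1 to 6, against 1.27, 1.56, 1.04, 1.11, 1.07 and 1.17 on water arrays 1 to 6, with no overlap. AT1G54500 fell, with a log2 change of -1.19 ± 0.09 (SE, n = 6 per group) and an adjusted p of 1.45e-06 (limma), lower in 6 of 6 numbers. The limma adjusted p was 8.59e-05 with the array number as a replicate block and 0.00449 with consecutive numbers averaged. It also passed under median centring (-1.30) and on the deposited values (-0.84). The place adjustment left -0.79 (limma adjusted p = 7.67e-06). Its change was thus near that of LPA19 before the adjustment and larger in size after it. That difference was not tested.

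Among 10 repair proteases and thylakoid kinases, SPPA (AT1G73990), a thylakoid protease, was the only one measured. SPPA averaged 0.852 ± 0.144 with bromoxynil and 0.715 ± 0.107 with water (SD, n = 6 each), and its log2 change on quantile-normalised values was -0.17 ± 0.12, with an adjusted p of 0.256 (limma). It was lower in 4 of 6 numbers and did not pass the test. On the deposited values its change was 0.25, so its sign turned with the scaling, with an adjusted p of 0.130 (limma) there. Of 11 nuclear photosystem II subunits, PSBY and PSBW were measured. PSBY fell (log2 -0.85) and was at -0.34 after the place adjustment, where it did not pass (adjusted p = 0.0928, limma). With the replicate block added to the place adjustment, PSBY did pass (adjusted p = 0.0343, limma). PSBW rose (0.67), but it was at -0.21 under median centring and at 0.25 on the deposited values, and passed in neither, while after the place adjustment it was at 1.07 and passed (limma adjusted p = 9.95e-06). In all, 1 of the 4 rose, 2 fell and 1 did not pass, against 54.4% of all probes called, and nothing is read from this count.

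The genes whose 6 changes within an array number were most like those of each member were sought among 496 other single-gene probes outside the dimmest 25%. Likeness was the root mean square difference over the 6 numbers, as a description. For LPA19 the nearest were AT3G54210, a plastid ribosomal protein of the L17 family, at 0.201, and AT4G35980 and AT1G79220, both at 0.206, against a median of 1.30 over the candidates. PSB27 had less close neighbours, AT3G44810 at 0.286, AT2G38550 at 0.344 and AT3G12930 at 0.349, against a median of 0.980, and each of these was below 0 in number 2, where PSB27 was not. After the place adjustment these 3 had changes of -1.04, -0.49 and -1.23, against -0.13 for PSB27, and the 3 nearest to LPA19 had -0.69, -0.66 and -1.15, against -0.35 for LPA19, so likeness on unadjusted values did not carry over to the adjusted changes. For AT5G46390 the nearest were AT3G23940 at 0.369, an enzyme that makes branched-chain amino acids, AT3G52960 at 0.503, a plastid peroxiredoxin, and AT3G25680 at 0.594, against a median of 2.65. None of these shared its low number 2: their lowest changes within a number were 2.52, 2.27 and 2.64, against 1.71 for AT5G46390. After the place adjustment they had changes of 1.99, 1.77 and 2.48, against 2.10 for AT5G46390. PSB27 and LPA19 differed from each other by 0.546, while AT5G46390 differed from PSB27 by 3.45 and from LPA19 by 3.80.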

How the data were processed

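The deposited table holds array intensities on a linear scale, from 0 to 100, for 3439 probes on 12 arrays. Scanning, background subtraction and the combining of spots by the authors are steps that the sources used here do not give. Between 3.14% and 4.57% of values on an array were 0. Each 0 was replaced by the smallest positive value on its array, values were taken as log2 and arrays were quantile-normalised. Each probe was fitted with limma 3.58.1 in R 4.3.3 (lmFit and eBayes, two-sided, Benjamini-Hochberg over all probes, threshold 0.05), without a block. Errors of log2 changes are the fit's SE. The number of arrays limits the precision.

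Probes were named from GEO's platform annotation: 692 name 1 gene, 870 several and 1877 none. Of the 692, 690 were matched by gene identifier to a RefSeq table (TAIR10.1, names only). Same-number arrays of both groups deviated together, with correlations of 0.323 to 0.418 over all probes, which comes from the data and not from the labels. Correlations between arrays of different numbers are not given. Whether arrays pair by single number or by sets of consecutive numbers was therefore not tested. For the place adjustment, each array had the median over places up to 6 away in the repeat of 288 subtracted, then the median of each of 12 columns of probe numbers. Named genes are the 3 members, every measured gene of 3 photosystem II lists and the 3 genes most like each member. The alternatives were other scaling, a pseudocount of 0.05, a dim filter, a variance trend, the replicate block, averaged consecutive numbers, the place adjustment and arrays left out. The members and lists were chosen with earlier results of these data known. The procedures were tested on simulated data. Plots were made in Python 3.11.15 with matplotlib 3.10.9.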

Additional observations from a re-analysis of the deposited data

Results flagged for a closer look

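In 7 of 20 sets of 6 values examined, 1 value lay far from the others by Dixon's test, and chance gives about 5% of sets. Several of these sets share arrays, so they are not independent. Array number 2 accounts for 5 of them. PSB27 had a log2 change of 0.11 within number 2, against -1.03 to -0.74 in the other numbers. AT5G46390 was at a log2 intensity of -0.97 on bromoxynil array 2, against 0.46 to 1.01 on the other bromoxynil arrays, and its change within number 2 was 1.71, against 2.66 to 3.04. The difference of LPA19 minus PSB27 was -1.17 in number 2, against -0.42 to -0.06, and that of AT5G46390 minus PSB27 was 1.60, against 3.40 to 3.89. On bromoxynil array 1 LPA19 was at -1.71, and the other bromoxynil arrays had it at -1.38 to -1.18. AT1G54500 was at -0.97 on bromoxynil array 5, against -0.83 to -0.75.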

How the results depend on the processing

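The signs of all 3 changes and of the differences between the members held under every alternative run. With the replicate block 2055 probes were called. PSB27 was called there, without water array 2 (log2 change -1.06) and with numbers 1 and 2 left out (-0.83, chosen after the data were seen), but not with number 2 alone left out (-0.87, likewise). Nothing is read from these calls. In 11 of the 12 fits that left out 1 array it was not called, and its change ran from -1.06 to -0.52. That of LPA19 ran from -1.16 to -1.05 and that of AT5G46390 from 2.52 to 2.94. The difference of LPA19 minus PSB27 ran from -0.61 to -0.06, the value -0.06 being that without water array 2, and was -0.26 with number 2 left out of both groups. After the place adjustment, with or without the block, PSB27 was at -0.13, LPA19 at -0.35 and AT5G46390 at 2.10, and AT5G46390 exceeded PSB27 by 2.23 and LPA19 by 2.45. On the values as deposited PSB27 was at -0.38, LPA19 at -0.72 and AT5G46390 at 2.86. With consecutive array numbers averaged, 1230 probes were called instead of 1872, with 3 values per group in place of 6. Signal over background was not measured, which limits the AT5G46390 values with water.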
